A study of Drosophila busckii and Drosophila melanogaster and Drosophila virilis with 5 samples.

Results

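The pair-rule gene run (runt, FBgn0013920) lay in a topologically associating domain (TAD) of 1008 kb on the X chromosome of Drosophila virilis. It was the only gene with the symbol run on X in the D. virilis annotation, 1 of 14556 annotated genes, and it was chosen by the length and coding gene count of its TAD, which was near 1 Mb long and held 44 coding genes. Those values are therefore a description and carry no test. TADs were measured from one boundary centre to the next on the same chromosome arm, and a coding gene was counted in the TAD that held its midpoint. Contacts between parts of the genome were measured by in situ Hi-C in whole, mixed-sex embryos of stages 15 to 16, with no treatment. The series holds 5 samples. The maps used here came from the D. virilis stock labelled 15010-1051.0 and from D. melanogaster labelled w1118 Oregon R, each merged by the authors from 2 replicates before boundaries were called, and the D. busckii samples were not analysed here. Each species thus gave 1 boundary list, so no value below has a spread between embryos, and cells of all types and of both sexes were averaged in each map.

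Runt is the founding member of the Runx family of transcription factors, which bind DNA through a shared Runt domain together with a partner protein, in D. melanogaster Brother or Big brother. In the D. melanogaster embryo run is expressed in stripes and acts among the pair-rule genes, which turn the broad pattern set by the gap genes into repeated segments. It is later used in the nervous system, and its position on X makes it one of the signals by which the embryo reads the number of X chromosomes and turns on Sxl, the switch gene for female development. A TAD is a stretch of chromatin whose parts contact each other more than they contact the sequence beyond its boundaries, and in flies many boundaries lie at the promoters of broadly used genes. Enhancers and the promoters they act on usually share a TAD.

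The sequences that surround the gene and its TAD can be shown for D. melanogaster, whose genome was given for the build of the boundary list. They are printed because the results turn on these places, the start of run, the right end of its TAD and the gene start at its left end. Each is a window of 300 bases of the plus strand of X in the RefSeq genome (BDGP6), read 5′ to 3′. At the left end the 5′ UTR of CG1812 covers the centre of the boundary and is not shown, and the window before the start of CG1812 (chrX:20511244-20511543) has only its last 28 bases inside the boundary. The window of the right end is centred on the boundary (chrX:20760063-20760362), and the run window ends 1 base before the first start of run (chrX:20690370-20690669). The right end window lies wholly inside the noncoding gene lncRNA:CR43838. Most of the run window lies inside another, lncRNA:CR45610 (chrX:20690320-20690633, minus strand), whose start is 0.037 kb from that of run. Capitals mark matches to GAGA, searched as GAGAGAG on both strands. Motif 1 (GGTCACACT) and DRE (TATCGATA) were searched in the same way, and no motif overlapped another in these windows.
before the start of CG1812: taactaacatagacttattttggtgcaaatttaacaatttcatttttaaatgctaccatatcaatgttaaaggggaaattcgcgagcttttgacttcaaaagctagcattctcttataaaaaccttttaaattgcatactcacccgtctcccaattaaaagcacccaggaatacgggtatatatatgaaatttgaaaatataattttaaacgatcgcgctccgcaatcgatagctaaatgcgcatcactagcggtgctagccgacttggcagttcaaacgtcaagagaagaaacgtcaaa
right end of the run TAD: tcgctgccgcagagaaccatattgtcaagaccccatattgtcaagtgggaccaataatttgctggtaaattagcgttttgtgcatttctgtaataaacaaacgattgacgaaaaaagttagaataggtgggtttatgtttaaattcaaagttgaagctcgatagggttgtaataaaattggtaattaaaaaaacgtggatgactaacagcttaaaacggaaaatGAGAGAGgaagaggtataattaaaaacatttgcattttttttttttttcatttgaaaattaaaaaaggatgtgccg
before the first start of run: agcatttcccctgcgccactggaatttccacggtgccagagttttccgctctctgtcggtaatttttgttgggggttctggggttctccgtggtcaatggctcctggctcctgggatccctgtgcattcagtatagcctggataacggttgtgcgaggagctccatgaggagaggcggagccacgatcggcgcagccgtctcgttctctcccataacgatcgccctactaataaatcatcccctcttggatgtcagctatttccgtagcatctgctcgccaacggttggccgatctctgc
The right end window held 1 GAGA match, and the other windows held no match to any of the 3 motifs. Among windows of the same length centred on the 385 boundaries of D. melanogaster X, 7.79% held a GAGA match, 6.23% a DRE match and 3.12% a Motif 1 match. Before the 2196 coding gene starts of X the shares were 5.60%, 12.9% and 4.28%. Within 500 bp of the boundary centre, both ends of the run TAD held 1 GAGA match and no match to Motif 1 or DRE, beside shares of 19.2%, 11.2% and 17.4% of all X boundaries. The GC content was 36% in the window before CG1812, 32.7% in that of the right end and 55.7% in the window before run. A match is a run of letters, and binding was not measured.

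In D. virilis, run was annotated on the minus strand at chrX:25945507-25947330 of the authors' Hi-C assembly, 1824 bp in all. Its single transcript had 2 exons of 688 and 941 bp and an intron of 195 bp, with no annotated UTR, so that the annotated start is the first base of the coding sequence. The coding sequence was 1629 bp, or 543 codons with the stop. In D. melanogaster, run (FBgn0003300) was annotated on the plus strand at chrX:20690670-20697321 with 3 transcripts, and its longest coding sequence of 1533 bp, or 511 codons with the stop, was split by an intron of 409 bp. Most of the 6652 bp of the D. melanogaster gene is therefore UTR and intron, and the lengths of the 2 gene models are not comparable.

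The D. virilis TAD ran from 25619756 to 26627878 on X. Its length of 1008 kb was 25.5 times the median of 39.6 kb over the 2121 TADs of the list. It was the longest of the 368 TADs on X and the 2nd longest of all. TADs at least as long made up 0.0943% of the list, 2 in number, and the other 1, of 1194 kb on 2R, held 3 coding genes and a joint between scaffold pieces. The 44 coding genes compare with a median of 4 per TAD. TADs with at least as many coding genes made up 0.283%, 6 in number, and the most gene-rich held 55. No other TAD was at least as long and held at least as many coding genes.

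Among TADs within 25% of its coding gene count, those with 33 to 55, run's TAD was the longest of 17. With only the 50% of boundaries that had lower scores it was the 2nd longest of 65. The 16 others measured from 128 to 996 kb with a median of 426 kb, and run's TAD was 2.37 times that median. It was not alone at this size, since the longest of the others, a 2L TAD of 996 kb that held 49 coding genes, fell short of it by a factor of only 1.01. Only 1 of the 16 others lay on X, with 662 kb and 33 coding genes. Read the other way, 14 other TADs measured 500 kb or more, and they held 3 to 49 coding genes with a median of 31.5. The 44 coding genes of the run TAD stood high in that range, and 4 of the 14 contained a joint. The plot of TAD length against coding gene count shows how sparsely this corner is filled.

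The TADs most like it were ranked by the distance in log10 length and log10 of coding genes plus 1, each divided by its SD over the list. The nearest was the 2L TAD at a distance of 0.138, none of whose genes carries a symbol other than a GJ number. Next came a 2R TAD of 619 kb with 46 coding genes at 0.445, which contains a joint and holds the maltase genes Mal-A8, Mal-A7 and Mal-A6. A 3R TAD of 580.2 kb with 42 coding genes at 0.504 held the odorant-binding protein genes Obp83g, Obp83cd and Obp83abL1. A 2R TAD of 609 kb with 36 coding genes at 0.523 held Obp56a, Obp56b and Obp56c, of the same family. The X TAD of 662 kb at 0.528 held Cp36, a chorion protein gene, and up, which encodes troponin T. How many TADs of the list hold several named members of 1 family was not counted, so these names are not shown to be a trait of TADs like that of run. Run was the only gene of its own TAD with a symbol, so whether that TAD also holds members of 1 family cannot be seen from the names.

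The density of coding genes was low beside that of all TADs, as it was in other long TADs. The run TAD held 43.6 coding genes per Mb, beside a median of 106 per Mb over all TADs, and the 16 TADs of like gene count held 49.2 to 336 per Mb. The 12 longest TADs, that of run included, held 2.51 to 74.3 per Mb, and an X TAD of 648 kb and a 3R TAD of 613 kb held 43.2 and 44.0. Density is the gene count divided by the length, so it follows in part from the choice of the TAD. Coding genes covered 51.2% of its length, beside a median of 73.8% over the TADs of X. On the side of lower coordinates the next TAD measured 41.9 kb and held 15 coding genes, 358 per Mb, and the 4 before it measured 8.00 to 76.5 kb. On the other side the next TADs measured 13.6 and 26.8 kb, followed by longer ones of 276, 487 and 167 kb with 10, 19 and 20 coding genes. The TADs directly beside the megabase TAD, of 41.9 and 13.6 kb, were thus much shorter than it, though the first was near the list median of 39.6 kb.

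The boundaries at its ends were unlike in the deposited score, a TAD-separation score that the authors computed and that falls as contacts across the boundary become fewer. The left end boundary (chrX:25618641-25620871) had a score of -0.267, and 5.83% of the 2127 boundaries of the list and 23 of the 369 on X scored lower. The right end boundary (chrX:26627165-26628592) had a score of -0.0783, and 43.9% of the list and 183 of 369 on X scored lower. The list had a median of -0.0543 and quartiles of -0.151 and 0.0610. The left end thus had one of the lower scores of X, and the right end was close to the X median of -0.0762.

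Each end lay at the start of a coding gene. The start nearest the left centre was that of GJ26866 on the minus strand, 0.44 kb away, whose body lies outside the TAD, and the start of GJ18908 on the plus strand, 1.115 kb from the centre, fell on the first base of the same boundary. The start nearest the right centre was that of GJ18937 on the plus strand, 0.656 kb away, whose midpoint also lies outside the TAD. A coding start within 1000 bp was found at 61.2% of all D. virilis boundaries, and at both ends of 843 of the 2121 TADs (39.7%).

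Inside the TAD run lay away from both ends. Its start was 327.6 kb from the left end and 681 kb from the right end, 32.5% of the way along. The nearest boundary was thus 327.6 kb away, beside a median of 10.8 kb over the 13322 coding genes that could be placed, 99.8% of which were nearer to one. Of the 31 coding genes that were farther, 18 lay in the run TAD itself, 12 in the 2L TAD of 996 kb and 1 in a 3R TAD of 751 kb. The farthest, at 483 kb, was a gene of the run TAD. No boundary lay within 100 kb or within 250 kb of run, where X coding genes had medians of 3 and 7, and 5 lay within 500 kb, where the median was 12. Of the X coding genes, 202 of 2138 had none within 100 kb and 30 of 2130 none within 250 kb, run included in both. Since the TAD was chosen for its length, these distances follow in part from the choice.

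Run also had wide gaps to the next coding genes, as had other genes of its TAD. The gap to the next coding gene on the side of lower coordinates, GJ18914, was 61.5 kb, and the gap to GJ19251 on the other side was 24.0 kb. Together they came to 85.5 kb of sequence without an annotated coding gene, beside a median of 2.23 kb, and 98.1% of 13379 coding genes had a smaller sum. Beyond these neighbours lay GJ19255, of 42.9 kb, which starts 100.5 kb from run on the minus strand and lies wholly within GJ18913 on the plus strand, and on the other side GJ19249, whose start was 48.3 kb from that of run. GJ18914 and GJ19251 are short genes of 1.25 and 0.883 kb. With no symbol beyond a GJ number, the files give no function for any of them, and none is given here. Gaps this wide were not particular to run within its TAD. GJ18914 had gaps of 25.5 and 61.5 kb beside it and GJ18917 gaps of 63.0 and 28.9 kb, both larger in sum than those of run. Since the TAD was chosen for its length, such gaps follow in part from the choice.

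The 44 coding genes were unevenly spread over the TAD. They were divided evenly between the strands, 22 on each, and 1 noncoding gene lay among them. Counted in 10 equal bins of 100.8 kb from left to right, the TAD held 4, 1, 3, 3, 1, 9, 6, 3, 1 and 13 coding genes, and run was in the fourth of these. The last bin alone thus held 13, and 12 coding genes from GJ19228 onward, 27.3% of them, shared 53.5 kb at the right end, 5.30% of the length. That group was picked out after its positions were seen. The 5 gaps between coding genes that exceeded 40 kb all lay in the left part, around run, and came to 272 kb together. The widest was 63.0 kb, between GJ19249 and GJ18917, and the next, of 61.5 kb, was the one beside run.

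**Figure D1:**
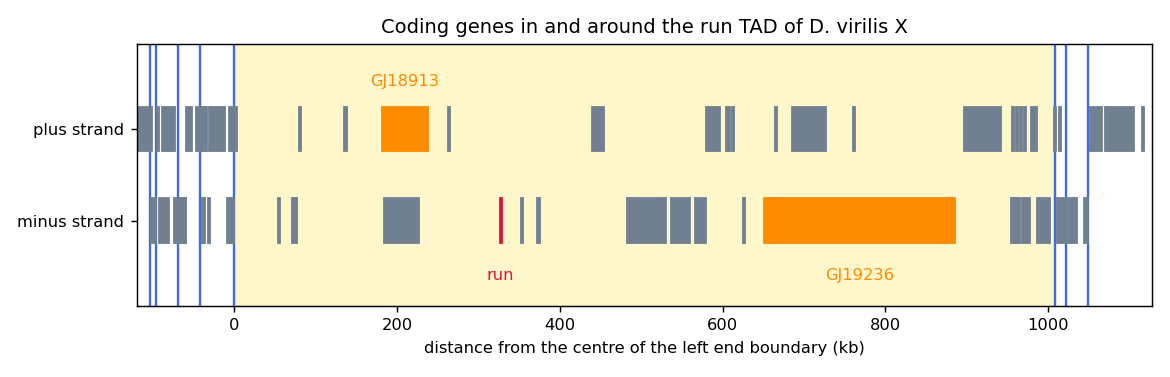
Coding genes of the D. virilis run TAD by strand against the distance from the centre of its left end boundary (kb), with 120 kb on either side of the TAD. The shaded stretch of 1008 kb holds no boundary (vertical lines), run is red and 2 of the 3 longest genes are orange; genes are drawn at no less than a fixed minimum width, and the 12 genes at the right end fill 53.5 kb.

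The genes of the TAD were mostly short, with a median of 2.08 kb beside 2.21 kb over all coding genes, but 6 of the 44 were 40 kb or longer, beside 3.91% of all coding genes (this limit was set after the lengths were seen). The longest was GJ19236, of 234 kb on the minus strand, the widest bar in the map of the TAD. GJ19236 contained 6 other coding genes, GJ19235, GJ19234, GJ18926, GJ18928, GJ18929 and GJ19230, of which GJ18928 was itself 42.4 kb long. The next longest were GJ18913, of 56.3 kb, and GJ18931, of 45.3 kb. Run, of 1.82 kb, was slightly shorter than the median gene of its TAD.

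Along X, windows of 1 Mb were laid out from the middle of the run TAD. The window on the TAD held no boundary, which follows from the length of the TAD, and 43 coding genes. Over the 32 windows the medians were 12 boundaries and 68.5 coding genes, and the other windows held 4 to 19 boundaries and 6 to 106 coding genes. The 2 windows closest to it in coding genes, with 39 and 48, held 13 and 7 boundaries. A gene count like that of the run window was therefore found elsewhere on X with several boundaries, and 4 windows held fewer coding genes than it. Of the 2142 coding genes of X that start in a TAD, 44 start in the run TAD.

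**Figure D2:**
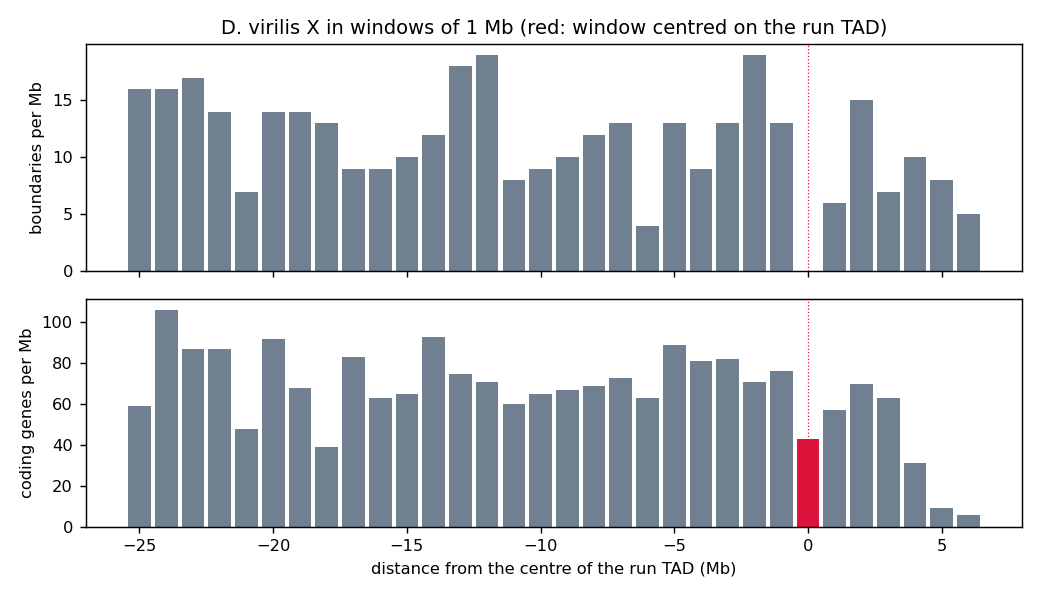
Boundaries (top) and coding genes (bottom) in each window of 1 Mb of D. virilis X, against the distance of the window from the middle of the run TAD (Mb). The red window holds the run TAD, with 0 boundaries and 43 coding genes, beside medians of 12 and 68.5 over the 32 windows.

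The assembly around run, which enters the call of a boundary, and the numbers in the boundary names were looked at. No contact matrix was read. The D. virilis X of 33.3 Mb was put together from 43 scaffold pieces, and the run TAD lay wholly inside the longest, of 11.7 Mb, which was placed in reverse. The joint nearest to the TAD was 4.03 Mb from its right end, whereas 3.72% of all TADs contain a joint. Only joints between pieces were counted. Contigs joined within an older scaffold, which the paper describes as separated by stretches of N, were not looked at. The boundary names carry a number that rises along the genome, and over the run TAD it rose by 1124, or 897 bp per step. The median over all TADs was 745 bp, with quartiles of 628 and 902, and among the 182 TADs of 200 kb or longer it was 989 bp, with 133 of them above the value of the run TAD. What this number counts is not given in the sources used here. On D. melanogaster X it rose by 1 for a median of 2.01 DpnII sites, the sites of the enzyme that cuts the chromatin, and the value in the run TAD of that species was 1.97. The run TAD of D. virilis thus had more bases per step than 74.4% of all TADs and fewer than most long ones. The paper gives the total of useful reads of each map, but contact counts are not part of the lists. The depth within the TAD is therefore unknown, and whether it plays a part in the length of the TAD was not tested.

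The D. melanogaster list was not used to choose run, and there too the gene lay in a long TAD, shorter than that of D. virilis with all boundaries kept. It ran from 20511849 to 20760212 on X, 248 kb, 7.0 times the median of 35.5 kb, and held 12 coding genes. TADs at least as long made up 2.63% of the 2203 in the list, and it ranked 9th of 384 on X. At least as many coding genes were held by 14% of TADs, 309 in number, and 37 were at least as long with at least as many. These values depend on the boundaries kept. With only the 50% that had lower scores the D. melanogaster TAD measured 769.9 kb and held 51 coding genes (a count chosen after seeing the data), and the D. virilis TAD kept its ends. Both D. melanogaster ends fell just outside this limit, with 50.2% and 50.3% of boundaries lower. The D. virilis ends, with 5.83% and 43.9% lower, fell inside it. With 1 list per species and no replicate lists the difference between species allows no test.

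Some features were alike in the 2 species. The density was 48.3 coding genes per Mb in D. melanogaster, beside a median of 136, and 43.6 in D. virilis. Coding genes covered 41.6% of the D. melanogaster TAD, beside a median of 89.8% over TADs of X. Gaps of 13.6 kb to hydra and 37.1 kb to CG1324 lay beside run, 50.7 kb together, beside a median of 0.956 kb, and 97.6% of coding genes had a smaller sum. Run started 179 kb from the left end and 69.5 kb from the right end, and 93.0% of 13908 coding genes were nearer to a boundary, with a median of 9.09 kb. Boundaries within 100, 250 and 500 kb of run numbered 1, 3 and 7, beside X medians of 4, 10 and 19. Run was therefore far from boundaries and from other coding genes in both species, and the distances in kb were larger in D. virilis.

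**Figure D3:**
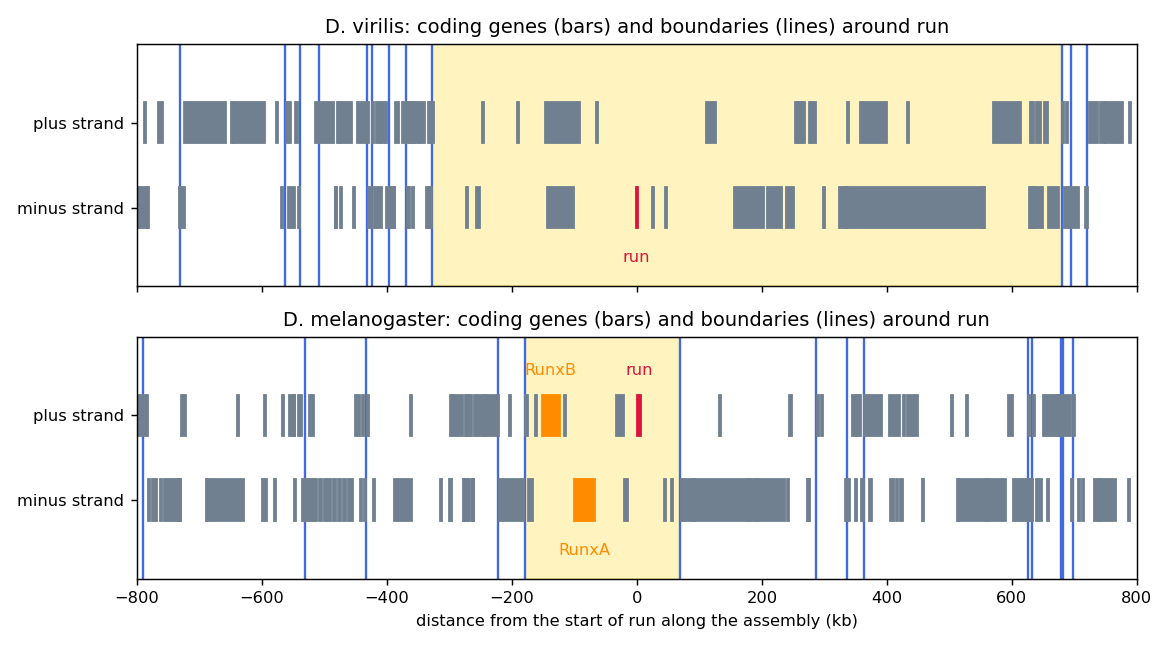
Coding genes by strand (bars) and boundaries (vertical lines) on X within 800 kb of the start of run in each species, against the distance along the assembly (kb), with the run TAD shaded. No boundary lies within 250 kb of run in D. virilis (top), and 3 do in D. melanogaster (bottom), where RunxA and RunxB (orange) share the TAD; the assemblies are drawn as numbered and run is on opposite strands.

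The neighbours are named in D. melanogaster. Other Runx genes lay in the same TAD, RunxA, whose start was 66.9 kb from that of run, and RunxB, whose start was 152 kb from it. These were also the longest genes of the TAD, at 33.5 and 28.6 kb. Of the 4 Runx genes of that species only lz (lozenge), needed for eye and blood cell development, lay elsewhere, alone in a TAD of 36.4 kb. The partner genes Bgb (Big brother) and Bro (Brother) started in neighbouring TADs of 63.7 and 29.1 kb on 3L, and Bgb had its midpoint in the same TAD as Bro. The other coding genes of the run TAD were Tak1, a kinase of the innate immune response, the cytochrome P450 gene Cyp6v1, hydra, CG1812, CG42579, CG42580, CG1835, CG1324 and CG15452. In the D. virilis annotation run was the only one of the 6 symbols of the Runx list that matched, so which of its 44 genes, if any, correspond to RunxA and RunxB cannot be said from the files.

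The ends of the D. melanogaster TAD had ordinary scores, -0.0784 on the left (chrX:20511516-20512183) and -0.0781 on the right (chrX:20759795-20760630), beside a list median of -0.0787. The left end lay 0.306 kb from the start of CG1812, which fell inside the boundary. The right end had no coding start near it, the closest being that of CG15452 at 14.2 kb. A coding start within 1000 bp was found at 68.6% of D. melanogaster boundaries. The noncoding gene lncRNA:CR43838 covered the centre of the right end and did start within 1000 bp of it. The printed window centred on the right end carries the GAGA match.

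Most other genes of early patterning lay in shorter TADs, here the TAD that holds the start of each gene. Of 9 pair-rule symbols 3 matched in D. virilis, and beside run these were eve, a homeobox gene, 1 of 2 coding genes in a TAD of 21.6 kb, and h (hairy), a bHLH repressor, in one of 51.7 kb with 2. In D. melanogaster the 7 others that matched, eve, ftz, odd, prd, slp1, slp2 and opa, lay in TADs of 30.4 to 97.4 kb with a median of 49.2 kb, the slp genes in the same one. Run had the longest TAD of the pair-rule genes that matched in each species, which in D. virilis follows from its choice by the length of its TAD. The 4 gap genes that matched in D. virilis lay in TADs of 45.5 kb (hb), 78.4 kb (Kr), 101 kb (tll) and 212 kb (kni), with a median of 89.7 kb. In D. melanogaster 7 of 8 were placed, at 45.0 to 524 kb with a median of 103 kb. There btd had a longer TAD than run, of 524 kb and 35 coding genes. Unlike run, btd started 6.58 kb from a boundary.

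On X, the genes that signal the number of X chromosomes differed widely among themselves. In D. virilis sisA, a bZIP gene, lay among 21 coding genes in a TAD of 263 kb, and sc (scute), a bHLH gene, in one of 179 kb with 5. Their target Sxl, an RNA-binding protein gene, crossed a boundary close to its start, so that its start lay in a TAD of 10.96 kb and its midpoint in one of 328 kb with 13 coding genes. In D. melanogaster the TADs measured 116 kb (sisA), 95.5 kb (sc), 75.4 kb (upd1, a secreted ligand) and 31.8 kb (Sxl). The start of Sxl was 0.303 kb from a boundary in D. virilis and 0.281 kb in D. melanogaster, whereas run was 327.6 and 69.5 kb away from one. Run had the longest TAD of these sex determination genes in each species, whether a gene was placed by its start or by its midpoint. In D. virilis this again follows from the choice of run by the length of its TAD.

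**Figure D4:**
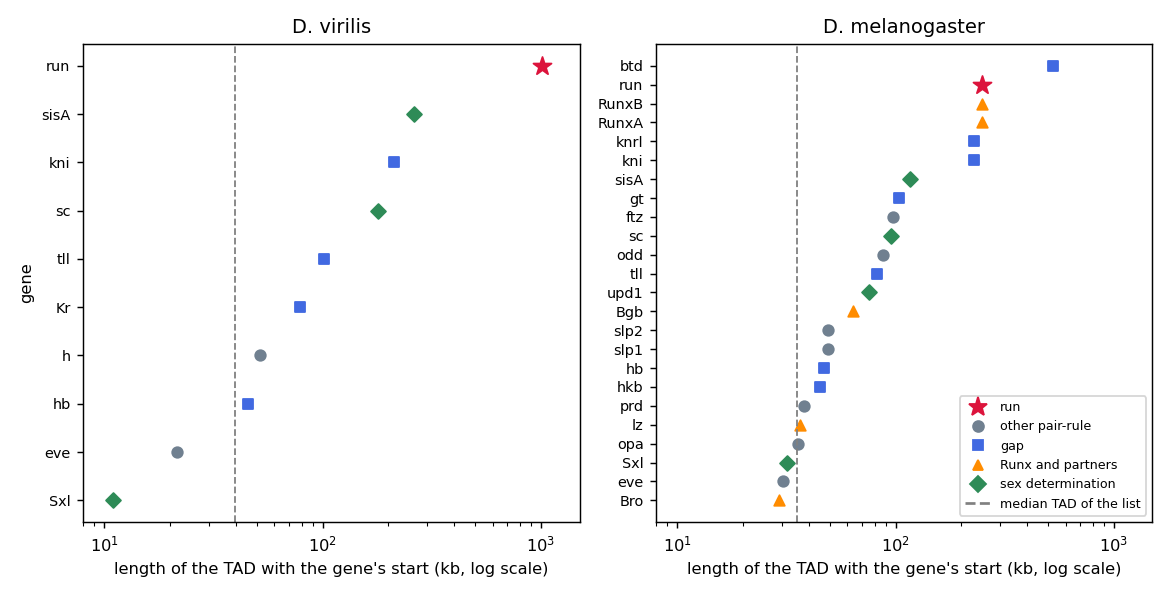
Length of the TAD that holds the start of each matched gene of the pair-rule, gap, Runx and sex determination lists (kb, log scale), sorted, in D. virilis (left) and D. melanogaster (right); the dashed line is the median TAD of each list. Run is at the top in D. virilis with 1008 kb, and in D. melanogaster only btd lies above its 248 kb.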

How the data were processed

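The deposited files used were the boundary lists of the D. virilis and D. melanogaster maps, the D. virilis annotation and a chain file giving the place of older scaffolds in the assembly. Per the study's methods the authors mapped reads with BWA, built matrices of DpnII fragments, summed 2 replicates, merged bins, corrected the matrices and called boundaries with HiCExplorer. The deposited score of a boundary is its TAD-separation score, used only within a list. D. melanogaster genes came from Ensembl release 115 without transposable elements. On that build 53.9% of the 770 boundary edges of X lay within 3 bp of the centre of a DpnII fragment, and 1.43% after a shift of 5000 bp. Joints were placed in the gaps between scaffold pieces. Positions count from 1. Python 3.11.15, NumPy 2.4.6 and matplotlib 3.10.9 were used, and gene placement was tested on 354 simulated TADs, with 100% given their true count.

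No test was run. Named were run and its 2 neighbours on each side, the starts nearest the ends, the 3 longest genes, the genes at the widest gap, genes with a symbol, matched list genes and up to 3 genes with symbols in each of the 5 most similar TADs. The gene and the lists were chosen with earlier results of these data known. Alternatives varied the ends of a TAD, the boundaries kept, how a gene was counted and which TADs were compared.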

Additional observations from a re-analysis of the deposited data

How the results depend on the processing

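The 27 alternatives left 20 values as they were or within 1.5 times and moved 7. The values are lengths, counts and ranks without a direction, so none could be reversed. Counts over fewer TADs could only stay or fall, and not below 1, since they include the run TAD. With only the 50% of boundaries that had lower scores, the D. virilis TAD kept its 1008 kb and 44 coding genes and ranked 2nd in length of 65 TADs of like gene count, while the D. melanogaster TAD lengthened to 769.9 kb and, in an alternative chosen after seeing the data, to 51 coding genes. The number of TADs at least as long as the D. virilis TAD fell from 2 to 1 on X alone, to 1 without TADs that contain a joint and to 1 without the outer 10% of each arm, and the number with at least as many coding genes fell from 6 to 1 on X alone. Taking the inner edges of the boundaries gave 1006 and 247.6 kb, and counting only whole genes gave 43 and 11 coding genes. No paired analysis was possible because each species has 1 merged list, and no replicate could be left out for the same reason. The contacts behind each boundary are not in the lists, so a weak boundary that was missed cannot be told apart from none.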
